A study of Mus musculus with 16 samples.

Results

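CD8+ T cells of accepted kidney allografts were compared with CD8+ T cells of the recipient's own spleen 1 week after transplantation. A member was any cell of the 2 matrices labelled CD8 T cells that carried at least 1 UMI (unique molecular identifier, 1 counted RNA molecule) of Cd8a or Cd8b1 and no UMI of Cd4, Cd79a, or Lyz2. This rule kept 15611 of 28380 cells, which were 11542 of 16467 graft cells and 4069 of 11913 spleen cells, out of 72639 cells in all CD8 matrices of the series. DBA/2J kidneys were transplanted into C57BL/6J recipients of genotype WT, a combination in which the kidney is accepted without treatment, so graft and host differed at the major histocompatibility complex. Viable CD45+ cells were sorted from grafts and spleens and profiled by 10x 3′ single-cell RNA-seq. The kidney was perfused and digested with collagenase, whereas the spleen was only ground and its red cells lysed, so that tissue and preparation cannot be told apart in any value given here. The tags at the start of the cell barcodes gave 3 graft libraries and 3 spleen libraries, which are the replicates. Per the study's methods every mouse was its own sample and the replicates were biological, in the same numbers as the tags. No label names the mouse behind a tag, and the p-values measure the spread between these libraries.

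Naive CD8+ T cells circulate between blood, spleen, and lymph nodes and are held quiescent by transcription factors such as TCF1, LEF1, and KLF2. After they meet antigen they divide, take up glycolysis, arm themselves with granzymes, perforin, and interferon-γ, and enter tissues through integrins and chemokine receptors. Repeated stimulation adds inhibitory receptors such as PD-1 and LAG3 and the factor TOX. The comparison asked which of these programs separated the cells in the graft from those in the spleen of the same type of recipient.

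The CD8 label held better in the graft than in the spleen. At least 1 CD8 chain was detected in 13963 graft cells (84.8%) but in only 5262 spleen cells (44.2%), and 6651 spleen cells carried neither. Of the cells with a CD8 UMI, the rule removed 2016 graft and 188 spleen cells for Lyz2, 35 and 943 for Cd79a, and 434 and 138 for Cd4, and a cell could count under more than 1 of these genes. The members of the graft libraries held between 9280784 and 17915839 UMIs and those of the spleen libraries between 2941512 and 5589330, with medians of 1993 to 3632.5 and of 1991 to 3476.5 UMIs per cell. Any pair of libraries shared between 2 and 13 cell barcodes, at most 0.28% of the smaller matrix. Among members, T cell receptor signaling genes were well expressed in both tissues, with Cd3e at 591 ± 97.1 CPM (counts per 1000000 member UMIs, SD, n = 3) in the graft and 289 ± 22.6 CPM in the spleen, and of the 18 genes of CD8 T cell identity 9 were higher in the graft and 1, Cd247, was lower, where 30.2% of all genes tested were higher and 14.8% lower. Under TMM factors, another scaling of the libraries, 5 were higher and 3 lower, where 23.1% of all genes were higher and nearly as many lower. Cd247 lost its call among non-dividing cells (adjusted p = 0.0847) and when graft library 2 or 3 or spleen library 1 or 2 was left out (0.0538 to 0.1003).

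Differences were widespread. Of 10650 genes with enough UMIs to test, 3217 (30.2%) were higher in the graft and 1573 (14.8%) were lower at an adjusted p under 0.05. The test throughout was the quasi-likelihood test of edgeR, and p-values were adjusted after Benjamini and Hochberg over all genes tested. All 3 graft libraries lay above all 3 spleen libraries in 36.3% of the genes tested and below them in 19.3%. The split between directions depended on the scaling, with 2459 higher and 2341 lower under TMM factors, which moved the median log2 ratio of all genes from 0.14 to -0.02. Counts of list members are to be read against these shares.

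**Figure D1:**
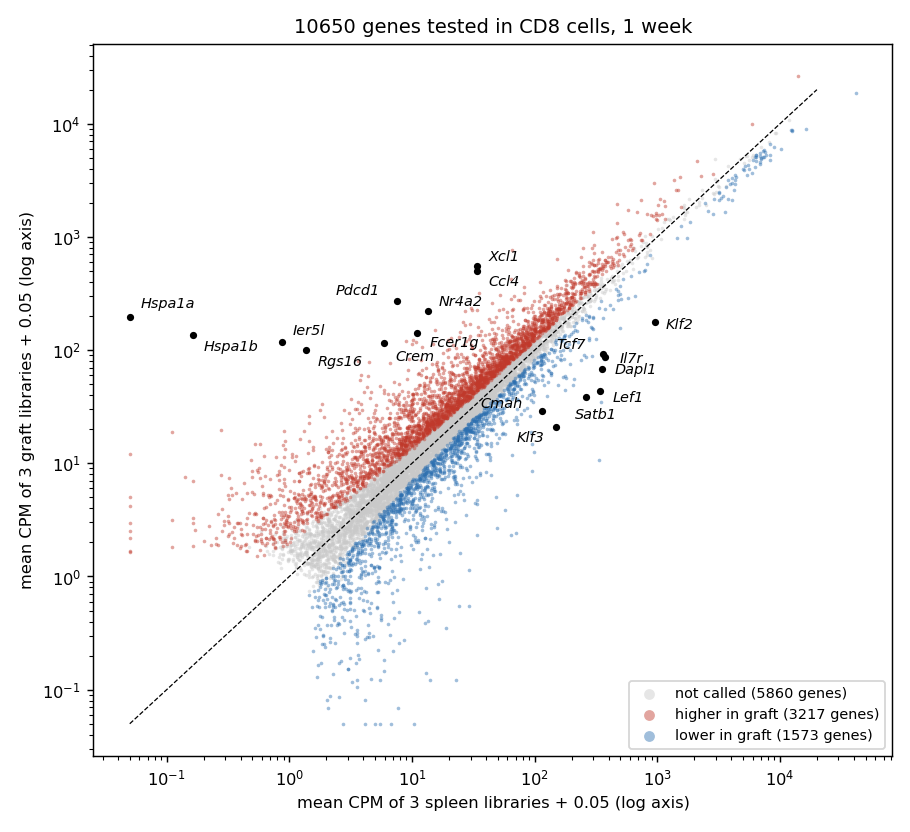
Mean CPM of each tested gene in the 3 spleen libraries (x axis) and the 3 graft libraries (y axis), both on log axes after adding 0.05, with genes higher in the graft in red (3217 genes), lower in blue (1573 genes), and not past the threshold in gray (5860 genes). The labelled genes are among those with the highest and lowest ratios above 100 CPM, from Hspa1a on the left, which had no UMI in any spleen library, to Klf2 on the right.

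Genes of the cytotoxic granule were higher in the graft almost throughout, led by granzyme B. The members counted were 14 higher and 1 lower of 16, with a median log2 ratio of 1.07 against 0.14 for all genes tested. Gzmb, the granzyme that triggers apoptosis in target cells (mm10 chromosome 14, 56258838 to 56262260, minus strand), was measured at 738, 845, and 701 CPM in the graft libraries and at 37.5, 48.6, and 109.9 CPM in the spleen libraries. Every graft library therefore lay far above every spleen library, by 11.7-fold on average (log2 ratio 3.51 ± 0.30 SE, adjusted p = 3.31e-06). Gzmk, a granzyme of memory-type cells, was 3.25-fold higher at 41.4 ± 1.83 against 12.7 ± 1.42 CPM.

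Perforin and granzyme A were much closer between tissues. Prf1, which forms the pore that lets granzymes into the target, stood at 48.8, 46.3, and 46.3 CPM in the graft and at 32.3, 41.1, and 33.1 CPM in the spleen, a 1.33-fold difference (adjusted p = 0.0181). Gzma reached 289, 207, and 310.3 CPM against 162, 178, and 229 CPM, and its groups overlapped. Both calls were lost under TMM factors (adjusted p = 0.0864 for Prf1 and 0.0879 for Gzma). The exception in the other direction was Gzmm, a granzyme of innate-like lymphocytes, at 4.42 ± 1.15 CPM in the graft and 32.4 ± 7.02 CPM in the spleen, 7.33-fold lower (adjusted p = 1.23e-06).

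Secreted mediators showed a similar direction, with 10 of 12 tested cytokines and chemokines higher, 1 lower, and a median log2 ratio of 2.17. Ifng, the cytokine that activates macrophages and raises MHC expression, was at 186, 179, and 143 CPM in the graft and at 28.7, 36.04, and 25.0 CPM in the spleen. The groups were well apart at 5.66-fold (log2 ratio 2.52 ± 0.15, adjusted p = 2.16e-07). Several chemokines differed more, with Ccl4 14.7-fold, Ccl3 13.6-fold, and Xcl1 16.2-fold higher. Ltb, the lymphotoxin subunit that organizes lymphoid tissue, was the member that was lower, at 582 ± 38.8 against 827 ± 25.2 CPM (adjusted p = 0.00119).

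Ccl5, a chemokine of memory and effector T cells and the most abundant transcript of the group, did not pass the test. Its levels were 5407, 7528, and 1619 CPM in the graft and 2492, 3926, and 2508 CPM in the spleen (log2 ratio 0.71 ± 0.39, adjusted p = 0.157). Graft library 3 lay below all spleen libraries, and without it the log2 ratio of Ccl5 was 1.12 (adjusted p = 2.91e-05). That library also held the largest share of dividing cells, and among non-dividing cells of all libraries Ccl5 was higher in the graft by 1.24 on the log2 scale (adjusted p = 0.00152). Ccl5 also passed with all matrix cells (0.0488), with cells thinned to 1000 UMIs (0.0156), and without the filter on genes (0.0253), but not with TMM factors (0.306). The part of dividing cells in the level of Ccl5 was not tested.

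**Figure D2:**
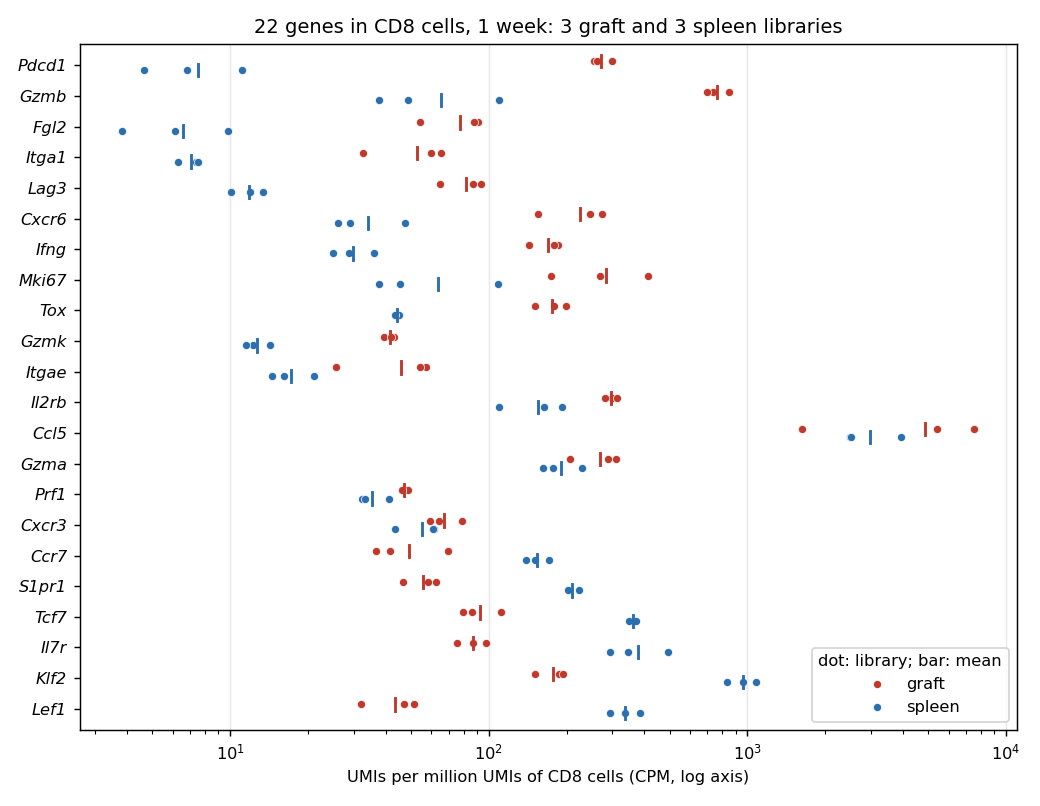
CPM of 22 genes (log axis) in each of the 3 graft libraries (red dots) and the 3 spleen libraries (blue dots), with bars at the group means and genes ordered by their log2 ratio. Pdcd1 at the top (254 to 299 against 4.65 to 11.1 CPM) and Lef1 at the bottom (32.1 to 51.5 against 295 to 383 CPM) are separated in every library, whereas Ccl5, Gzma, and Cxcr3 overlap.

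Inhibitory receptors were the list with the highest median. Of 11 checkpoint receptors 10 were higher, none was lower, and only Btla did not pass (median log2 ratio 3.03, with 9 higher and 1 lower under TMM). Pdcd1, which encodes PD-1 (mm10 chromosome 1, 94038305 to 94052553, minus strand), stood at 254, 263, and 299 CPM in the graft and at 4.65, 6.80, and 11.1 CPM in the spleen. The lowest graft library thus lay far above the highest spleen library, with a mean ratio of 36.2 (log2 ratio 5.10 ± 0.21, adjusted p = 1.35e-08). Lag3, a receptor for MHC class II, was 6.90-fold higher at 81.5 ± 14.9 against 11.8 ± 1.65 CPM. Havcr2, which encodes TIM-3, and Tigit were scarce in both tissues but separated, at 19.3 ± 2.22 against 0.861 ± 0.960 CPM and at 11.5 ± 0.715 against 0.566 ± 0.242 CPM.

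Genes linked with regulatory T cells were higher in 9 of 10 cases, and 1, Gpr83, was lower (median log2 ratio 2.76). Fgl2, a secreted inhibitor of dendritic cells, stood at 90.5, 87.8, and 54.1 CPM in the graft and at 3.83, 6.12, and 9.84 CPM in the spleen, 11.7-fold higher (adjusted p = 1.99e-06). Il2rb, the β chain of the receptor for IL-2 and IL-15 known as CD122, differed less, at 299, 282, and 312 CPM against 109.7, 163, and 191 CPM (1.93-fold, adjusted p = 0.000591). Foxp3 was at 10.0 ± 1.82 against 5.83 ± 2.23 CPM with overlapping libraries (adjusted p = 0.0417), and it lost the call under TMM factors (0.0863) and turned to a log2 ratio of -0.72 when every cell of the matrices was used. Part of this list also marks CD4+ T cells, whose 6 markers summed to 114 to 166 CPM in the graft and 44.6 to 52.4 CPM in the spleen with Cd4 itself at 0 by the rule. Their part in the result was not tested.

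Transcription factors split into a group that was higher and a group that was lower. Of 16 factors of effector and tissue-adapted cells 14 were higher and 1 was lower (median log2 ratio 1.28). Tox, the factor tied to lasting stimulation, was at 198, 179, and 150.5 CPM in the graft and at 44.6, 44.9, and 43.3 CPM in the spleen (3.98-fold, adjusted p = 2.81e-07). Prdm1, which encodes BLIMP-1 and drives terminal differentiation, was 9.82-fold higher, and Nfil3, a basic leucine zipper factor, was 11.96-fold higher. The paired T-box factors moved in opposite directions, with Tbx21 at 50.2 ± 5.79 against 17.7 ± 5.59 CPM (2.84-fold higher, adjusted p = 7.53e-05) and Eomes at 7.89 ± 0.835 against 35.95 ± 4.80 CPM (4.56-fold lower, adjusted p = 7.00e-07).

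Factors of naive and stem-like cells were lower in 11 of 14 cases, none was higher, and the median log2 ratio was -1.72. Lef1 (mm10 chromosome 3, 131110471 to 131224356, plus strand) stood at 51.5, 32.1, and 47.0 CPM in the graft and at 383, 335, and 295 CPM in the spleen, 7.76-fold lower (log2 ratio -2.95 ± 0.17, adjusted p = 1.28e-07). Tcf7, which encodes TCF1, was at 112, 79.6, and 86.0 CPM against 360, 370, and 349 CPM, 3.89-fold lower. Klf2, the factor that keeps exit receptors switched on, was at 187, 193, and 150.4 CPM against 1081, 961, and 836 CPM, 5.43-fold lower. In each of these genes the highest graft library lay below the lowest spleen library. Satb1, a chromatin organizer of T cells, and Klf3 were lower by 6.87-fold and 7.26-fold, and Myb, Bcl6, and Ets1 did not pass the test.

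Receptors that steer cells between blood, lymphoid tissue, and organs were found in both directions. Of 11 tested chemokine and sphingosine-1-phosphate receptors, 3 were higher, Cxcr6 among them, and 5 were lower, namely Ccr7, S1pr1, Ccr9, Cxcr5, and S1pr4. S1pr1, the receptor that lets T cells leave tissue, was at 62.6, 58.4, and 46.6 CPM in the graft and at 203, 202, and 224 CPM in the spleen, 3.75-fold lower (adjusted p = 3.70e-07). Ccr7, the receptor for entry into lymph nodes, was 3.13-fold lower at 49.2 ± 17.6 against 154 ± 15.9 CPM. Ccr9, the receptor for homing to the gut, was 26.3-fold lower at 1.10 ± 0.233 against 29.0 ± 9.26 CPM. Cxcr6, a receptor of tissue-resident cells, was at 246, 274, and 155 CPM against 29.0, 47.3, and 26.1 CPM, 6.60-fold higher. Cxcr3, the receptor for interferon-induced chemokines, was at 67.2 ± 9.98 against 55.2 ± 10.1 CPM and did not pass (adjusted p = 0.154), although it did among non-dividing cells (log2 ratio 0.61, adjusted p = 0.00170).

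Integrins and adhesion molecules were higher in 9 of 14 cases and lower in 2 (median log2 ratio 0.64). The chains of the collagen receptor VLA-1 were both higher, with Itga1 at 65.4, 59.9, and 32.7 CPM in the graft and at 7.39, 7.48, and 6.26 CPM in the spleen (7.48-fold, adjusted p = 6.58e-06) and Itgb1 3.24-fold higher. The chains of the E-cadherin receptor moved apart. Itgae, which encodes CD103, was at 57.3, 54.2, and 25.7 CPM against 16.1, 21.1, and 14.5 CPM (2.65-fold higher, adjusted p = 0.00141), and its partner Itgb7 was at 83.0 ± 9.84 against 161 ± 9.74 CPM (1.94-fold lower, adjusted p = 4.35e-05). In Itga1, Itgae, Cxcr6, and Ccl5 graft library 3 was the lowest of the graft. Cd69, often used as a marker of residency, was the other member that was lower.

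Of 17 receptors for cytokines 6 were higher and 4 were lower (5 and 5 under TMM), shares not far from those over all genes, and single members are given as values. Il7r, which passes the survival signal of IL-7, was at 86.9, 75.6, and 97.7 CPM in the graft and at 294, 345, and 495 CPM in the spleen, 4.36-fold lower (adjusted p = 2.46e-06). Il6ra was 13.8-fold lower at 5.17 ± 1.07 against 71.2 ± 1.98 CPM. Il2ra, the high-affinity chain for IL-2 known as CD25, was 6.43-fold higher at 32.6 ± 15.8 against 5.08 ± 2.46 CPM. Among 10 lectin receptors shared with natural killer cells, 3 were higher and 4 were lower, from Klrc1 (4.38-fold higher) to Klra7 (7.25-fold lower). Of 7 costimulatory receptors and ligands 5 were higher, with Icos 6.81-fold and Tnfrsf4, which encodes OX40, 7.20-fold above the spleen, and Tnfsf8 was lower.

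Every one of the 32 cell cycle genes was higher in the graft, with a median log2 ratio of 1.88. Mki67, the nuclear protein of dividing cells, was at 269, 175, and 411 CPM in the graft and at 45.4, 37.7, and 108.2 CPM in the spleen (4.47-fold, log2 ratio 2.12 ± 0.36, adjusted p = 0.000497). Top2a, which untangles replicated DNA, was at 299, 191, and 421 CPM against 55.0, 35.4, and 113 CPM. Within each tissue library 3 was the highest in both genes, yet its spleen level stayed below all graft levels. Pclaf, a partner of the replication clamp, was 5.71-fold higher, and H2afz, a histone variant also made by resting cells, was 1.58-fold higher with overlapping libraries. H2afz lost its call under TMM (adjusted p = 0.0712), without spleen library 1 or 2 (0.0906 and 0.0742), and among non-dividing cells (log2 ratio 0.0069, adjusted p = 0.977). Leaving out each library in turn left 31 to 32 of the genes higher. Of 53 tested genes listed as replication-dependent histones, 44 were higher and none was lower (median log2 ratio 1.53), a count that fell to 27 with cells thinned to 1000 UMIs and to 29 with a mean of at least 10 CPM, in fits of 8060 and 7218 genes. How fully 3′ RNA-seq counts such transcripts was not tested, and the count is no measure of replication.

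The pattern was also counted without dividing cells. When cells with UMIs of at least 2 of Mki67, Top2a, Pclaf, Stmn1, and Birc5 were left out, 27 of 29 tested cell cycle genes were higher in the remaining graft cells, where 27.0% of 9956 genes tested were higher and 13.6% lower. Of the histone genes 25 of 30 tested were higher in these cells. Hist1h2bc had a log2 ratio of 4.52 in them, against 3.52 in all members, and Hist1h1c had 0.557 against 0.562. The rule that took out dividing cells read cell cycle genes of the kind counted here, and cells with 1 of the genes of the rule remained.

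The upstream sequences of cell cycle genes that are switched on late in the cycle are known for repeated CCAAT boxes and for the cell cycle homology element, and 3 of them are shown with those letters marked. The 250 bases before the start of transcription are given 5′ to 3′ on the strand of the gene from RefSeq (GRCm38.p6), in lower case with every CCAAT and TTTGAA, on either strand, in capitals.
Cdk1 (chr10:69352913-69353162, minus strand): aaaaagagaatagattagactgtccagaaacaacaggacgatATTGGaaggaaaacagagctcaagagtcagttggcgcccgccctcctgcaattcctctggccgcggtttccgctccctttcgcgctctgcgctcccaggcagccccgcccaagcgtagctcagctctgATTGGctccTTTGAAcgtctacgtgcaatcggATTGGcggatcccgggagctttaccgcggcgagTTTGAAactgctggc
Top2a (chr11:99024190-99024439, minus strand): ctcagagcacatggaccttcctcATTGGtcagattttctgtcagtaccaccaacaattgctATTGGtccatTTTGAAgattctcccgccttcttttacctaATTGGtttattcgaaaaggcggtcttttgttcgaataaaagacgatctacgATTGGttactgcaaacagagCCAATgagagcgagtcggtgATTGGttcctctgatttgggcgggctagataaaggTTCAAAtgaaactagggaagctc
Ccnb2 (chr9:70421555-70421804, minus strand): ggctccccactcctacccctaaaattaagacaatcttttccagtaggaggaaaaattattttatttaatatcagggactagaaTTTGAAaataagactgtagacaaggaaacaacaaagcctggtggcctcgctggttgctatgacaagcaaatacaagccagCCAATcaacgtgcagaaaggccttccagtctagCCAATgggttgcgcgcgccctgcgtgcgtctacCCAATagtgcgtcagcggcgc
Cdk1, the kinase of mitosis, was at 58.8, 45.2, and 104 CPM in the graft and at 9.30, 10.2, and 33.5 CPM in the spleen, and the promoter held 3 CCAAT and 2 TTTGAA matches. The promoter of Top2a held 6 and 2, and that of Ccnb2, a cyclin of mitosis, held 3 and 1. Of 32 cell cycle genes 27 had a promoter in the RefSeq table, and CCAAT was found in 24 of their 28 promoters (85.7%) and in 33.9% of all 32851 promoters. TTTGAA was found in 9 of the 28 (32.1%) and in 15.99% of all. A match is a description of letters and not a measured site.

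Heat shock genes included the largest ratios of the whole comparison. All 12 were higher, with a median log2 ratio of 1.21. Hspa1a, an inducible HSP70 chaperone, was at 149, 246, and 194 CPM in the graft, whereas none of the 3 spleen libraries held a single UMI. The 7553 graft UMIs against 0 in the spleen put the graft at least 804-fold higher, when the spleen is given 3 UMIs over the group. Hspa1b, its near-identical copy, had 5160 UMIs in the graft and 1 in the spleen, a pooled ratio of 1648 with a 95% interval from 296 to 65126 that covers counting error only. Reads of the pair can be split between the copies, so neither value is certain alone. The constitutive chaperones differed far less, with Hspa8 1.65-fold and Hspe1 1.27-fold higher, and Hspe1 lost the call under TMM (adjusted p = 0.223).

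The upstream sequences of the pair are shown because the transcripts of both genes were nearly absent from the spleen and abundant in the graft. The 250 bases before the start are given as above, with the match to the heat shock element GAANNTTC, where N is any base, in capitals.
Hspa1a (chr17:34972157-34972406, minus strand): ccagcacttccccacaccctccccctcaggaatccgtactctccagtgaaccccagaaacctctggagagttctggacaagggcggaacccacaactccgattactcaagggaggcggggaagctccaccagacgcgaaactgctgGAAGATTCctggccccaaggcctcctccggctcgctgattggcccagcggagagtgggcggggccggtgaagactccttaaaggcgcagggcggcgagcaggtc
Hspa1b (chr17:34959239-34959488, minus strand): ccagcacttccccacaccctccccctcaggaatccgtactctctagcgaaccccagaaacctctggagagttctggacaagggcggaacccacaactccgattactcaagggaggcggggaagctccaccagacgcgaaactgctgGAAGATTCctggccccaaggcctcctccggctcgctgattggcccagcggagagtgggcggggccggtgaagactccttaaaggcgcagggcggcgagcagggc
Both held the element once, starting 104 bases before the start, and 247 of their 250 bases were identical. The same letters were found on either strand in 6.69% of all promoters.

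Immediate early genes, which respond within minutes to stimulation or handling, did not move together. Of 17 members 6 were higher and 5 were lower, and the median log2 ratio was 0.06, or -0.11 under TMM. The members that were higher were the orphan receptors Nr4a1, Nr4a2, and Nr4a3 with Atf3, Btg2, and Ier2. Nr4a2, a gene that follows signals of the T cell receptor, was at 241, 237, and 187 CPM in the graft and at 16.7, 13.6, and 10.2 CPM in the spleen (16.4-fold, adjusted p = 1.88e-08). Members of the AP-1 group did not share a direction. Fos was at 116, 91.5, and 60.2 CPM in the graft and at 434, 338, and 103 CPM in the spleen (3.26-fold lower, adjusted p = 0.00374), and the lowest spleen library lay within the graft range. Jun was lower with adjusted p = 0.0494 and overlapping libraries, a call lost when any 1 library but spleen library 3 was left out. Junb, at 802 ± 86.8 against 648 ± 158 CPM, and Egr1, at 35.4 ± 8.60 against 23.9 ± 10.5 CPM, did not pass (adjusted p = 0.134 and 0.0953), but did with the library number as a replicate block (0.0394 and 0.00230).

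Among the 12 highest ratios in abundant genes were also Ier5l, Rgs16, and Crem. Ier5l, of uncertain function, was at 119.9, 132, and 99.8 CPM in the graft and at 0.547, 1.02, and 0.895 CPM in the spleen, 143-fold higher (adjusted p = 7.06e-09). Rgs16, which shortens signals of chemokine receptors, was 76.2-fold higher at 101 ± 17.1 against 1.33 ± 0.0644 CPM. Crem, a factor of the cAMP response, was 19.7-fold higher. Opposite to these stood Tsc22d3, the glucocorticoid-induced leucine zipper gene, at 49.5 ± 4.66 against 204 ± 17.9 CPM (4.13-fold lower), and Dapl1, at 68.2 ± 24.8 against 353 ± 55.5 CPM (5.18-fold lower).

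Interferon-stimulated genes were more often lower than higher. Of 23 tested, 10 were lower in the graft and 1 was higher, with a median log2 ratio of -0.43 (13 lower under TMM, 5 with cells thinned to 1000 UMIs, and 7 of 22 among non-dividing cells, where 13.6% of all genes were lower). Ifi47, a GTPase induced by interferon-γ, was at 59.1, 46.2, and 42.3 CPM in the graft and at 103.7, 107.4, and 147 CPM in the spleen (2.43-fold lower, adjusted p = 5.14e-05). Ifit1, an antiviral gene of type I interferon, was 3.44-fold lower at 2.76 ± 0.945 against 9.51 ± 3.34 CPM. Isg20 was the exception at 78.4 ± 14.1 against 15.8 ± 2.01 CPM (4.95-fold higher). Isg15 did not pass (adjusted p = 0.526), but it was called higher without graft library 3 (log2 ratio 0.61, adjusted p = 0.0074). Of 14 genes of MHC class I and peptide loading 5 were higher and none was lower (4 higher under TMM). That share higher was near the 30.2% of all genes tested, and the median log2 ratio was 0.23 against 0.14.

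Energy metabolism and protein production were set apart as well. Of 15 glycolysis genes 13 were higher (median log2 ratio 0.96), with Gapdh at 1166, 1176, and 1656 CPM in the graft and 415, 446, and 546 CPM in the spleen and Tpi1 4.09-fold higher. Of 77 nuclear genes of oxidative phosphorylation 67 were higher and 1, Cox7a2l, was lower (56 higher under TMM). Of 37 proteasome subunits 29 were higher and none was lower (21 under TMM). The transcripts of the mitochondrial genome ran against the nuclear genes of the same complexes, with 12 of 13 lower and a median log2 ratio of -0.60. Ribosomal protein genes were lower in 50 of 81 cases and higher in 2 (61 and 1 under TMM), and their 82 members summed to 289133 to 298819 CPM in the graft and 371157 to 388756 CPM in the spleen.

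**Figure D3:**
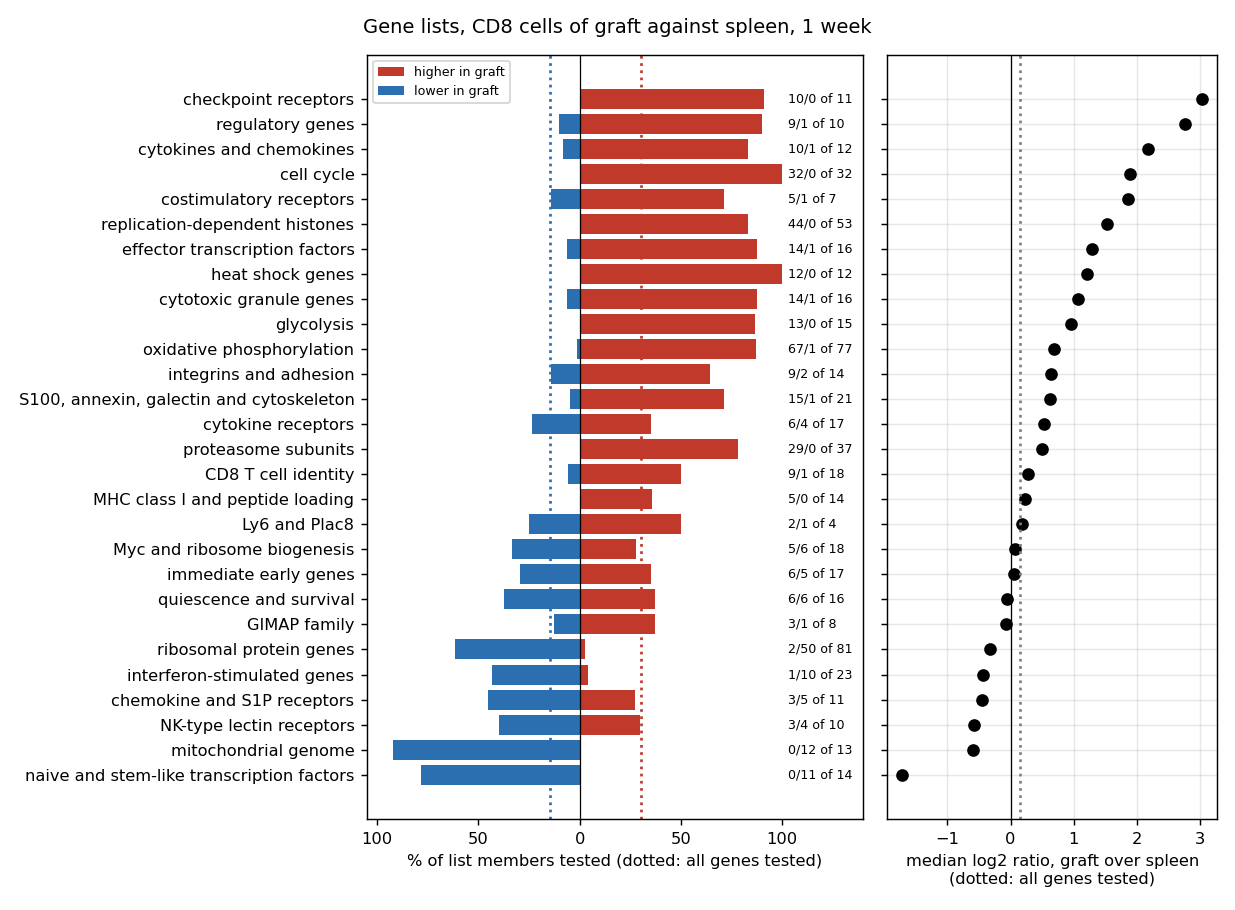
For each gene list, the left panel gives the share of tested members (percent) that were higher (red, to the right) or lower (blue, to the left) in the graft, with the counts higher/lower of tested at the side, and the right panel gives the median log2 ratio. Dotted lines mark all genes tested (30.2% higher, 14.8% lower, median 0.14), and the lists run from checkpoint receptors (10 of 11 higher) to naive and stem-like transcription factors (11 of 14 lower).

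The differences were also seen as shares of cells, counted after each cell was thinned to 1000 UMIs so that depth was equal, with 25 spleen cells and no graft cell left out. All 29 shares examined separated the 3 graft from the 3 spleen libraries, and each reached p = 0.1 in a two-sided exact permutation test, the smallest value that 3 against 3 libraries allow. They covered only the genes picked with the study in view and combinations of marker genes. Shares were not counted for all genes, but in CPM the libraries did not overlap for 55.5% of all genes tested. Without thinning the libraries overlapped for Prf1 (12.3% against 9.07%, p = 0.2 by the same exact test) and Cxcr3 (19.1% against 12.9%, p = 0.3 by the same exact test). A UMI of Gzmb was found in 31.9% ± 2.43 of graft cells and in 3.31% ± 1.19 of spleen cells (SD, n = 3; 47.7% and 5.70% without thinning). For Pdcd1 the shares were 22.04% ± 2.90 and 0.613% ± 0.209 (48.5% and 2.09% without thinning). Cells with both Gzmb and Pdcd1 made up 7.92% ± 1.21 of the graft and 0.0247% ± 0.0428 of the spleen, where 1 cell was found (27.2% and 0.647% without thinning). In contrast, cells with at least 2 of Tcf7, Lef1, Klf2, and Ccr7 made up 5.15% ± 0.974 of the graft and 40.0% ± 3.53 of the spleen (16.6% and 79.0% without thinning).

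Cells with at least 2 of 5 genes of division made up 15.6%, 11.8%, and 34.6% of the 3 graft libraries and 1.99%, 1.48%, and 6.13% of the 3 spleen libraries (32.4% and 5.02% on average without thinning). Graft library 3 therefore held the most dividing cells of the graft, and spleen library 3 those of the spleen. Cells with both Gzmb and Tcf7 made up 0.786% ± 0.180 of the graft and 0.146% ± 0.140 of the spleen (3.84% and 1.42% without thinning). Free RNA in the spleen was looked for in 45 cells with at least 2 B cell genes and no UMI of a CD3 chain, CD4, or CD8. Their median was 2614 UMIs. They came from the matrix labelled CD8 T cells, and whether they were T cells with missed CD3 and CD8 UMIs was not tested. Their shares therefore cannot be read as free RNA alone. The graft held no such cell, and only 8 cells without those T cell genes that carried myeloid genes, 3 of them with a Gzmb UMI and 6 with a Mki67 UMI, so that the graft shares have no comparable background. Of the 45 spleen cells none held Gzmb, but 0 of 45 allows a share of up to 6.67%, above the mean spleen share of Gzmb (5.70%), so that these cells decide nothing for it. Pdcd1 was found in 2.22% of them, Mki67 in 4.44%, and Gzma in 4.44%. Before thinning, at a median of 2693 UMIs, the spleen shares ranged over the libraries from 1.27% to 3.62% for Pdcd1, from 2.63% to 9.18% for Mki67, and from 2.77% to 7.37% for Gzma. Each range spans the value in the 45 cells, which rests on 1 or 2 cells per gene, and how much of these spleen shares is free RNA was not settled. Tcf7, Lef1, and Ccl5 were found in 40.0%, 28.9%, and 24.4% of the 45 cells, against 58.0%, 55.6%, and 38.9% of the spleen members before thinning.

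**Figure D4:**
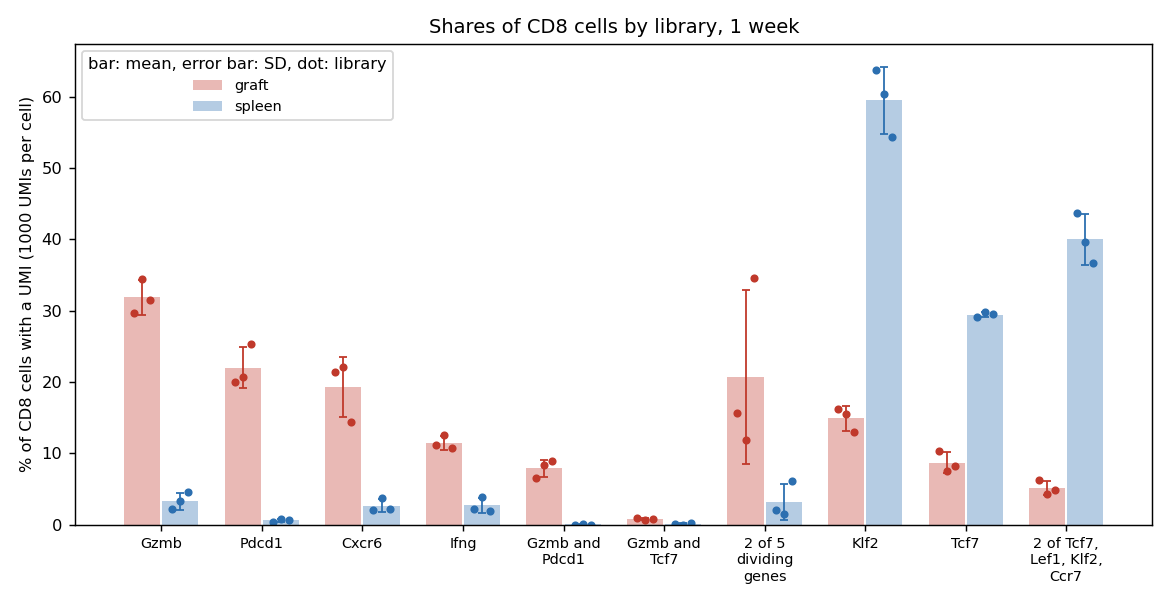
Share of CD8 cells with a UMI of the named gene or genes (percent, y axis) after thinning each cell to 1000 UMIs, for graft (red) and spleen (blue), with bars at the mean, error bars of 1 SD, and dots for the 3 libraries. Gzmb (31.9% against 3.31%) and Klf2 (14.9% against 59.5%) show the separation in each direction, and the wide error bar of the dividing cells in the graft comes from library 3 at 34.6%.

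Markers of other cells moved with the tissue and are given beside these results. Myeloid markers were higher in the graft in 7 of 11 cases and lower in 2, and all 14 summed to 324 to 431 CPM in the graft and 130.5 to 169 CPM in the spleen, with Lyz2 at 0 by the rule. Fcer1g, a signaling chain also found in some T cells, stood at 143 ± 55.6 against 10.98 ± 4.57 CPM, whereas S100a9, a neutrophil gene, was 48.4-fold lower in the graft (0.496 ± 0.259 against 24.0 ± 7.79 CPM, adjusted p = 3.00e-07). The macrophage gene Csf1r, at 1.74 ± 0.280 against 0.735 ± 0.492 CPM, and Itgam, at 1.45 ± 0.515 against 1.59 ± 1.58 CPM, did not pass (adjusted p = 0.0679 and 0.913). B cell markers were lower in the graft in 8 of 11 cases, at 303 to 389 CPM against 585 to 1011 CPM in sum, and Igkc, an immunoglobulin light chain, was at 10.6 ± 6.995 against 332 ± 134 CPM. The 9 markers of natural killer cells summed to 795 to 1079 CPM in the graft and 307 to 355 CPM in the spleen, most of it Xcl1 and Gzma, which CD8+ T cells also make, although of 8 tested markers 2 were higher and 3 lower. Klrb1c, which encodes NK1.1, was 3.87-fold lower in the graft and Klra8 was 3.10-fold lower, a call lost without spleen library 2 (adjusted p = 0.0939) and with all matrix cells (log2 ratio -0.039, adjusted p = 0.941). Ncr1 was at 0.906 ± 0.747 against 2.58 ± 0.712 CPM (adjusted p = 0.0722). It was called lower with the replicate block (0.0372), with DESeq2 (0.0401), and without graft library 3 (0.00392), but not with TMM factors (0.0531). The 6 gamma-delta T cell markers summed to 46.5 to 65.0 and 16.1 to 30.1 CPM, most of the graft sum being Tcrg-C2 (44.5 ± 6.94 against 5.90 ± 1.12 CPM), whereas Trdc, the constant gene of the delta chain, was 5.98-fold lower in the graft (2.14 ± 0.552 against 12.8 ± 4.86 CPM, adjusted p = 3.46e-05). The 7 endothelial markers summed to 2.28 to 5.53 and 0.547 to 1.79 CPM, and the 8 kidney markers found in both matrices, of 21 listed, to 25.5 to 28.9 and 8.41 to 13.6 CPM. Kidney markers absent from either matrix are outside this sum, which can therefore miss kidney RNA. Red cell genes were found mainly in graft library 1, with Hbb-bs at 43.2 CPM. The part of these cells in the results was not tested, but without cells that held a UMI of Cd79b, Ms4a1, Csf1r, C1qa, Ncr1, Hbb-bs, Umod, or Kap, 3157 genes were higher and 1490 lower.

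The same comparison at 3 weeks, made with the same rule in 18304 graft and 2324 spleen cells of 5 libraries each, showed where the 1-week contrast differed. In a joint fit of 11432 genes the graft-to-spleen ratio was larger at 3 weeks in 2061 genes (18.0%) and smaller in 989 (8.65%). Under TMM the split was 1260 larger and 1656 smaller. The contrast of Pdcd1 went from 5.09 at 1 week to 8.61 at 3 weeks on the log2 scale, that of Gzmb from 3.4998 to 7.096, and that of Itga1 from 2.91 to 6.89. For Gzmb the mean graft level was 762 and 868 CPM at the 2 times, and the spleen level was 65.3 and 5.99 CPM. Pdcd1 was at 272 and 512 CPM in the graft and at 7.51 and 1.25 CPM in the spleen. Lag3 was at 81.5 and 135 against 11.8 and 1.01 CPM, and Itga1 at 52.7 and 414 against 7.04 and 3.43 CPM. These 3-week ratios therefore rest on spleen levels of only a few CPM. Tcf7 went from -1.96 to -5.28 and Ccr7 from -1.66 to -5.62. Their mean graft levels at 3 weeks were 11.2 and 4.76 CPM, so these ratios rest on low graft levels. Tox (adjusted p = 0.103), Mki67 (0.241), and Il7r (0.0756) did not pass the test of the difference.

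By list, the 1-week contrast was the less extreme for checkpoint receptors, with 6 of 11 larger and 1 smaller at 3 weeks, and for naive and stem-like factors, with 8 of 14 further lower. It was the more extreme for cell cycle genes, of which none was larger and 9 of 32 were smaller at 3 weeks (median log2 ratio 1.87 at 1 week and 0.74 at 3 weeks), and for glycolysis, with 9 of 15 smaller. Mki67, whose difference did not pass, had a log2 ratio of 2.11 at 1 week and 3.21 at 3 weeks. Its mean level went from 285 to 20.4 CPM in the graft and from 63.8 to 2.26 CPM in the spleen. Interferon-stimulated genes, 10 of which were lower in the graft at 1 week, had a larger ratio at 3 weeks in 11 of 23 cases and a smaller ratio in none (medians -0.43 and 0.02). Markers of other cells moved as well. The ratio was larger at 3 weeks for 7 of 11 B cell, 4 of 9 natural killer cell, and 3 of 4 gamma-delta T cell markers, and smaller for none of them. It was smaller for 2 of 5 CD4+ T cell markers and larger for none. The part of these cells in the other lists was not tested.

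**Figure D5:**
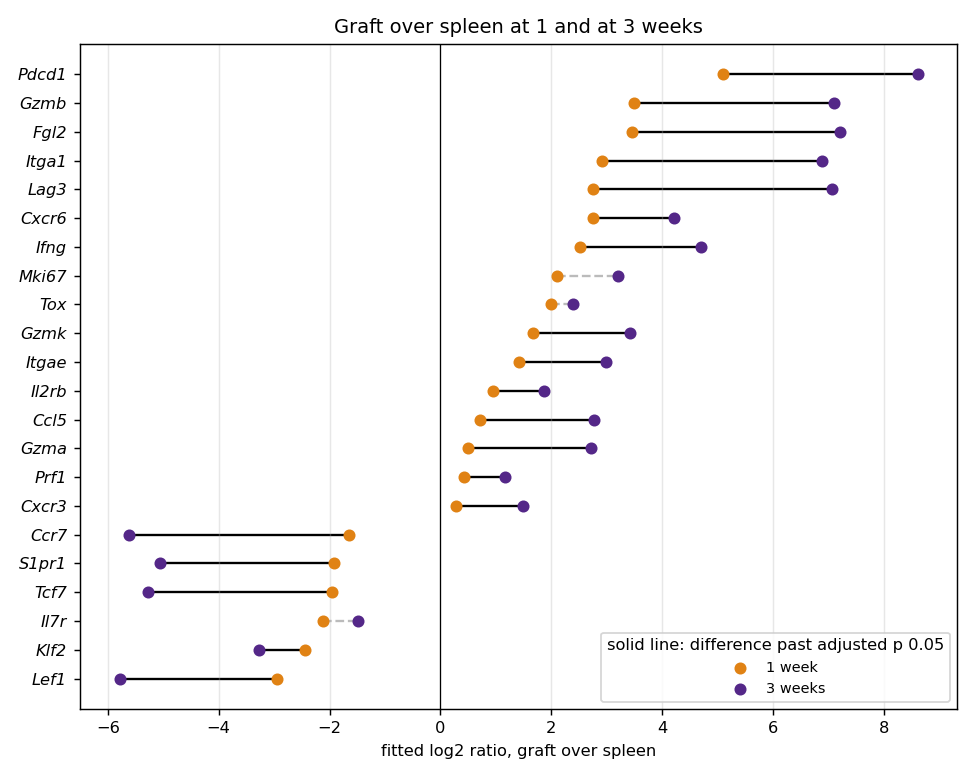
Fitted log2 ratio of graft over spleen (x axis) for 22 genes at 1 week (orange) and 3 weeks (purple), ordered by the 1-week value. Solid lines join values whose difference passed the test, as for Pdcd1 (5.09 and 8.61) and Tcf7 (-1.96 and -5.28), and dashed lines those that did not (Tox, Mki67, and Il7r).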

How the data were processed

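The data were UMI counts per gene and cell that the authors deposited as 1 matrix per tissue and cell type. Per the labels and the submitters' processing notes, reads were processed with Cell Ranger against mm10 (version not given in the sources used here), and per the study's methods cells were filtered on UMIs, genes, and mitochondrial content and then assigned to cell types. No doublet caller was run here.

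Counts of the member cells were summed per library tag over the 17197 genes shared by both matrices (19497 and 17517 genes), using the library total as scale. Genes kept by edgeR's filter on low counts were tested with its quasi-likelihood test (edgeR 4.0.16, R 4.3.3) at an adjusted p of 0.05. The 3-week difference was an interaction term in a joint fit of 4 groups over 16729 shared genes. Shares of cells were counted after thinning to 1000 UMIs (500 as an alternative, seed 20) and compared by exact permutation tests (scipy 1.17.1, python 3.11.15, numpy 2.4.6). DESeq2 1.42.0, other scaling, other filters on genes and cells, thinned counts, non-dividing cells, a replicate block, and leaving out each library were alternatives. The filter on cells kept those with at most 10% mitochondrial UMIs, 200 to 7000 genes, and 1000 to 40000 UMIs.

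The test was checked on simulated counts for the 1-week comparison of 10650 genes. It recovered 100% of 100 genes changed by a log2 ratio of 2 and 100% of 100 changed by 1, with 15 false calls. The changed genes were drawn from those with a mean of at least 20 CPM and split evenly between directions. The spread of each gene was taken from the main fit. Rarer genes, and data with as many differing genes as were called here, were not covered by this check.

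Library tags share the numbers 1 to 3 across tissues, and deviations from the group means correlated at 0.203, 0.195, and 0.323 between libraries of the same number over 1188 genes. Graft library 1 correlated more with spleen library 2 (0.270) than with its own number. No label says what the number marks. All 3 same-number values exceed 0.1, and the libraries were therefore treated as paired in the replicate block. The value of 0.270 between unlike numbers exceeds 0.1 too, so the pairing is not established by these correlations.

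The members and gene lists were chosen with earlier results of these data known. Named genes were 22 genes picked with the study in view, the 12 highest and 12 lowest ratios among called, non-overlapping genes with at least 100 CPM in the higher tissue (mitochondrial, ribosomal protein, immunoglobulin, T cell receptor, and cell rule genes left out), and the first 4 members of each list with its extremes among members of at least 20 CPM. Cdk1 and members named without values were added after their values were seen. Some genes that the rule or the lists name are not reported here. Coordinates came from GENCODE M21 (16945 of 17197 symbols matched) and promoters from RefSeq. Intervals and limits cover counting error only.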

Additional observations from a re-analysis of the deposited data

Results flagged for a closer look

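For 19 of 22 genes the graft-to-spleen ratio differed between 3 weeks and 1 week by the interaction test, as it did for 26.7% of all genes tested. These genes were picked with the study in view, and their count is no independent evidence. The following values are the log2 ratio at 3 weeks minus that at 1 week. Among effector genes the difference was 3.60 for Gzmb, 0.751 for Prf1, 2.21 for Gzma, 1.75 for Gzmk, 2.18 for Ifng, and 2.07 for Ccl5. The mean graft level at 1 and 3 weeks was 269 and 249 CPM for Gzma, 41.4 and 36.2 for Gzmk, and 169 and 195 for Ifng. The spleen level of these genes went from 190 to 38.3, from 12.7 to 3.15, and from 29.9 to 7.41 CPM. In the graft Prf1 went from 47.1 to 132 CPM and Ccl5 from 4852 to 12642 CPM. Among inhibitory and regulatory genes the difference was 3.52 for Pdcd1, 4.30 for Lag3, 3.76 for Fgl2, and 0.922 for Il2rb. Of the 10 genes linked with regulatory T cells, however, 2 had a larger ratio at 3 weeks and 3 a smaller one. The median log2 ratio of that list was 2.76 at 1 week and 0.97 at 3 weeks. For genes of tissue entry and residence the difference was 1.56 for Itgae, 3.98 for Itga1, 1.46 for Cxcr6, and 1.20 for Cxcr3. Genes of naive and circulating cells had the opposite sign, with -3.31 for Tcf7, -2.83 for Lef1, -0.834 for Klf2, -3.97 for Ccr7, and -3.14 for S1pr1. In the graft at 3 weeks these genes were low, at 11.2, 7.91, 65.5, 4.76, and 8.56 CPM in the same order. The spleen at 3 weeks held 352 to 542 member cells per library, against 1264 to 1438 at 1 week. The calls of Gzma and Gzmk were lost among non-dividing cells (adjusted p = 0.0670 and 0.402), and that of Gzma also with DESeq2 (0.104). Tox, Mki67, and Il7r, which did not pass, did so in some alternatives, Tox with all matrix cells (0.0415) or without spleen library 1 of 3 weeks (0.0307), Mki67 among non-dividing cells (0.0487), and Il7r without spleen library 1 of 1 week (0.0363) or graft library 4 of 3 weeks (0.0441). In each of these alternatives the ratio was larger at 3 weeks.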

How the results depend on the processing

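The direction of most named genes held under the alternatives tried, scaling moved the split between directions while the total of calls stayed between 4790 and 4800 in 4 scalings, and the total fell to 3701 with a mean of at least 10 CPM, 3957 with DESeq2, 2662 with thinned cells, and 3877 without spleen library 1. With library totals without ribosomal protein and mitochondrial genes, 2081 genes were higher and 2717 lower. With a mean of at least 10 CPM, 1010 were lower. With all matrix cells, 2816 were lower. With cells thinned to 1000 UMIs, 1936 were higher and 726 lower. DESeq2 called 2147 higher and 1810 lower. Leaving out each library in turn gave 2585 to 3237 higher and 1274 to 1483 lower genes, and for the difference from 3 weeks 1590 to 2296 larger and 810 to 1117 smaller ratios. That difference gave 1260 larger and 1656 smaller with TMM, 1130 and 1780 with DESeq2, and 3597 larger with all matrix cells. With all matrix cells the log2 ratio turned for Klrd1 (0.43), Ly6c2 (0.12), Ly6a (-0.031), Foxp3 (-0.72), Ikzf2 (-0.15), H2-Aa (-3.73), Izumo1r (-0.13), and Tcrg-C4 (-1.17). It turned for H2-Aa (-1.25) with thinned cells and for Nop56 (-0.41) among non-dividing cells, and the graft-minus-spleen share of cells, Cxcr3, was -0.161 percentage points when 2 UMIs were required. In the fit with thinned cells the cell rule was applied after thinning. Cells that lost their Cd4, Cd79a, or Lyz2 UMIs could therefore enter it, and cells that lost their CD8 UMIs left it. The cause of these turns was not tested. With the replicate block, 3422 genes were higher and 1677 lower, and the named genes that gained a call were Il18r1 (0.55), Junb (0.33), Egr1 (0.64), Ncr1 (-1.34), and Tyrobp (0.57). The block changed no other call of a named gene. With 3 libraries per tissue, exact tests of shares cannot go below p = 0.1, and depth limits genes under a few CPM.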

Other observations

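Of 21 S100, annexin, galectin, and cytoskeleton genes 15 were higher in the graft and 1 lower (13 and 1 under TMM), led by S100a4, a calcium-binding protein of activated cells (4.12-fold higher), with S100a6 at 2.84-fold and Lgals1 at 2.46-fold. Of 16 genes of quiescence and survival 6 were higher and 6 lower. Bcl2, the survival factor, was 2.25-fold lower, whereas Bcl2a1b, an inducible relative of it, was 5.89-fold higher, and Pik3ip1, an inhibitor of PI3 kinase, was 6.42-fold lower.

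Genes of the Myc program and of ribosome building were divided as well, with 5 higher and 6 lower of 18 (median log2 ratio 0.07, or -0.10 under TMM). Among non-dividing cells 2 were higher and 11 lower (median -0.39), where 27.0% of all genes were higher and 13.6% lower. Odc1, the first enzyme of polyamine synthesis, was 3.94-fold higher, and Myc itself had a log2 ratio of -0.45 (adjusted p = 0.0243), a call lost with thinned cells (0.0702) and without graft library 2 or 3 or spleen library 1 or 3 (0.0519 to 0.101). Of 8 GIMAP genes, small GTPases of lymphocyte survival, 3 were higher and 1 lower, or 1 and 3 under TMM.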
